A study of Mus musculus with 4 samples.

Results

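Noncoding RNAs were followed in LSK cells, the lineage-negative, Sca-1-positive and c-Kit-positive fraction of mouse bone marrow that holds the stem cells and early progenitors of blood. The members are the non-control array probes whose transcript name is a RefSeq noncoding accession (NR_), without the genes of X inactivation. They number 1395 of 55681 non-control probes and read 1252 transcripts of 1240 genes. A symbol was found for 1192 of these transcripts in the RefSeq gene table of GRCm38.p6, and the other 60 keep their accession.

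All mice were of the C57BL/6 strain. Native LSK cells came from wild-type mice and from mice heterozygous for Sf3b1 (Sf3b1+/-), both aged 20 weeks. Transplanted LSK cells were the donor-derived cells of wild-type or Sf3b1+/- marrow, sorted 9 months after the marrow had been given to lethally irradiated hosts. The labels count 4 mice for the native and 5 recipients for the transplanted collection. Each of the 4 groups is 1 array, and the sources used here do not give how many mice stand behind it. Age, host irradiation and time in the host go with transplantation and cannot be told apart from it. Sf3b1 encodes a subunit of the U2 small nuclear ribonucleoprotein that binds the intron branch site.

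Noncoding RNAs work without being translated. Small nuclear RNAs such as U1 and U2 form the core of the spliceosome, and small nucleolar RNAs guide the chemical modification of ribosomal RNA. Many small nucleolar RNAs and microRNAs are cut from the introns or exons of longer host transcripts. Long noncoding RNAs are longer than these classes and include scaffolds of nuclear bodies, antisense transcripts and transcripts that start beside a protein-coding gene on the other strand.

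The microRNA host Mir17hg is shown first because its level differed in all 4 comparisons. Its hairpins give the miR-17-92 cluster, which is known to act in early blood and B-cell development. RefSeq (GRCm38.p6) places 6 hairpins of the cluster at or beside this host on chromosome 14. Capitals mark the seed, bases 2 to 8, which sets most of the pairing with target mRNAs.
mmu-miR-17-5p: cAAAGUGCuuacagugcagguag
mmu-miR-20a-5p: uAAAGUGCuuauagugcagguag
mmu-miR-18a-5p: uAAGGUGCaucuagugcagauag
mmu-miR-19a-3p: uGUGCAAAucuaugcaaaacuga
mmu-miR-19b-3p: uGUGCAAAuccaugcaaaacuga
mmu-miR-92a-3p: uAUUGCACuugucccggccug
The hosts Dleu2 and Mir22hg were also measured, and the leading strands of their microRNAs follow.
mmu-miR-15a-5p: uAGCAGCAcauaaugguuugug
mmu-miR-16-5p: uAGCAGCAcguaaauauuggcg
mmu-miR-22-3p: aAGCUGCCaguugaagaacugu
Within these 9 microRNAs miR-17-5p and miR-20a-5p share a seed, so do miR-19a-3p and miR-19b-3p, and so do miR-15a-5p and miR-16-5p. The arrays read the host transcripts and not the mature microRNAs.

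The second set of sequences belongs to the host genes of small nucleolar RNAs, whose level after transplantation stood above 0 in both genotypes. Transcripts of this class are known to start in a run of pyrimidines, the mark of genes whose translation follows nutrient signals. Each line gives 30 bases on either side of the RefSeq start, with a run of C and T of at least 5 bases that opens with C within 10 bases of the start in capitals.
Snhg7 (chr2:26640215-26640274, minus strand): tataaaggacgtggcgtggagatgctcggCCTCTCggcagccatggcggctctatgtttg
Snhg12 (chr4:132308648-132308707, plus strand): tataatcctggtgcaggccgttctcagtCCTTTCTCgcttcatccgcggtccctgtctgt
Snhg16 (chr11:116671630-116671689, plus strand): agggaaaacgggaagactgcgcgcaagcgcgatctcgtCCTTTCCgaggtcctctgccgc
Snhg3 (chr4:132353657-132353716, minus strand): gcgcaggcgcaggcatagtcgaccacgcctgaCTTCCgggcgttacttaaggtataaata
Snhg5 (chr9:88522868-88522927, minus strand): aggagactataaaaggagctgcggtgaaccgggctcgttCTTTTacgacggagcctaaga
Dancr (chr5:74093030-74093089, plus strand): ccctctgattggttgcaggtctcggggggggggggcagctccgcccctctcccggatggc
Of 11 host genes with a start in the table, which include Snhg18 and not Snhg6, 7 held such a run. It is in 30.7% of all 32851 start windows, and Dancr is shown as one without it. The match is a description of these windows and was not tied to any level.

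The arrays differed little in detection and more in brightness. Well above background were 47.7% and 48.7% of the spots of native wild-type and Sf3b1+/- cells, and 50.2% and 51.5% of those of transplanted wild-type and Sf3b1+/- cells. Set against the spike-in RNAs, the 75th percentile of the detected probes was up to 2.12 times that of the wild-type native array. That highest value was on the Sf3b1+/- transplanted array. Repeated spots of 1 probe had an SD between 0.067 and 0.080 on the log2 scale. Levels are given as log2 of the processed signal relative to the 75th percentile of the detected probes of the same array, so 0 is that percentile, and a level is never compared between probes. Differences are log2 values, Sf3b1+/- minus wild type or transplanted minus native. With 1 array per group no difference has a replicate check, and a probe counts as higher or lower from 1.5-fold upward. The probe of Sf3b1 itself read -2.19 (wild type) and -2.60 (Sf3b1+/-) in native cells and -2.87 and -2.98 in transplanted cells. Levels are given in this order throughout. It was thus lower by 0.41 in native and by 0.11 in transplanted Sf3b1+/- cells, and where the allele is interrupted relative to the probe is not known here. All 9 LSK marker genes were above background on every array.

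Fewer noncoding probes than mRNA probes gave a signal. On at least 2 arrays 499 of the 1395 probes, or 35.8%, were well above background, and these are compared below. The share was 63.2% of 26585 mRNA probes (NM_) and 49.7% of all probes. A further 847 noncoding probes were above background on no array. Among the members the class long noncoding RNA had 30.1% of 1039 probes compared and the class transcribed pseudogene 50% of 244. All 4 probes of small nuclear RNA genes, both of small nucleolar RNA genes and both of ribosomal RNA genes passed. Genes classed as protein-coding, such as Prmt6 and Runx2, had 15 of 19 member probes compared. Whether these probes also read the mRNA was not tested. Of the 499, 436 passed on all 4 arrays, 30 on 3 and 33 on 2, so the compared probes are not the whole set. They read 435 genes.

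The small RNA genes were lower in transplanted Sf3b1+/- cells. All 8 on the array were above background on every array, and all 8 lay below 0 in that comparison, 7 of them by at least 1.5-fold, where 11% of all compared probes were that much lower. Their median was -1.09 against -0.09 over all compared probes. In native cells 7 of 8 were below 0, 2 of them at least 1.5-fold lower against 6.46% of all probes, with a median of -0.27 against -0.04.

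Rnu2-10, a gene of the U2 small nuclear RNA with which the Sf3b1 protein works, read 1.15, 0.46, 1.14 and -0.29. Both Sf3b1+/- arrays lay below both wild-type arrays, with differences of -0.69 and -1.42. Rnu3b1, a gene of U3, which directs an early cut of the ribosomal RNA precursor, read 0.76, 0.23, 0.98 and -0.39 in the same order. Its groups were ordered in the same way, and the differences were -0.53 and -1.37. Rnu1b6, a gene of U1, which recognises the 5′ splice site, read 2.68, 2.63, 3.09 and 2.20. Here the genotype difference was -0.05 in native cells and -0.90 in transplanted cells. Rnu12, a gene of U12, which binds the branch site of the rare minor introns, read 3.14, 2.90, 3.65 and 3.13, with differences of -0.24 and -0.51.

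Rmrp, the RNA of the RNase MRP enzyme that cuts the ribosomal RNA precursor, read -1.94, -2.13, -0.91 and -1.95. Its wild-type transplanted array stood apart above the other 3, and the differences were -0.18 and -1.04. Terc, the template RNA of telomerase, read -5.29, -6.04, -5.12 and -5.94. Both Sf3b1+/- arrays lay below both wild-type arrays, by -0.75 in native and -0.82 in transplanted cells, at a signal of 29.5 to 52.6 units, close to background. The box H/ACA RNAs Snora74a and Snora47, which guide pseudouridine formation, differed by -0.30 and 0.02 in native and by -1.14 and -1.29 in transplanted cells.

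The transplanted wild-type array is also part of the comparison with native cells, so these differences are not independent. In wild-type cells 7 of the 8 small RNA genes were above 0 after transplantation, with a median of 0.46, and in Sf3b1+/- cells 3 were, with a median of -0.23. Small RNAs of this kind carry no poly(A) tail as a rule and many are multi-copy genes, so what part of the signal comes from which copy was not tested. Scaling to the spike-in RNAs, under which the median of all probes in transplanted cells is 0.53, left 7 of the 8 below 0, with Rnu12 at 0.10, and all 8 below that median. In native cells spike-in scaling left 4 of 8 below 0 and 7 of 8 below the all-probe median of 0.21. This scaling shifts all probes of an array alike, so the place relative to the median could not change. Quantile normalization and normexp background correction, which can change it, each left all 8 below the median in transplanted cells. In native cells each left 6 of 8 below it.

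**Figure D1:**
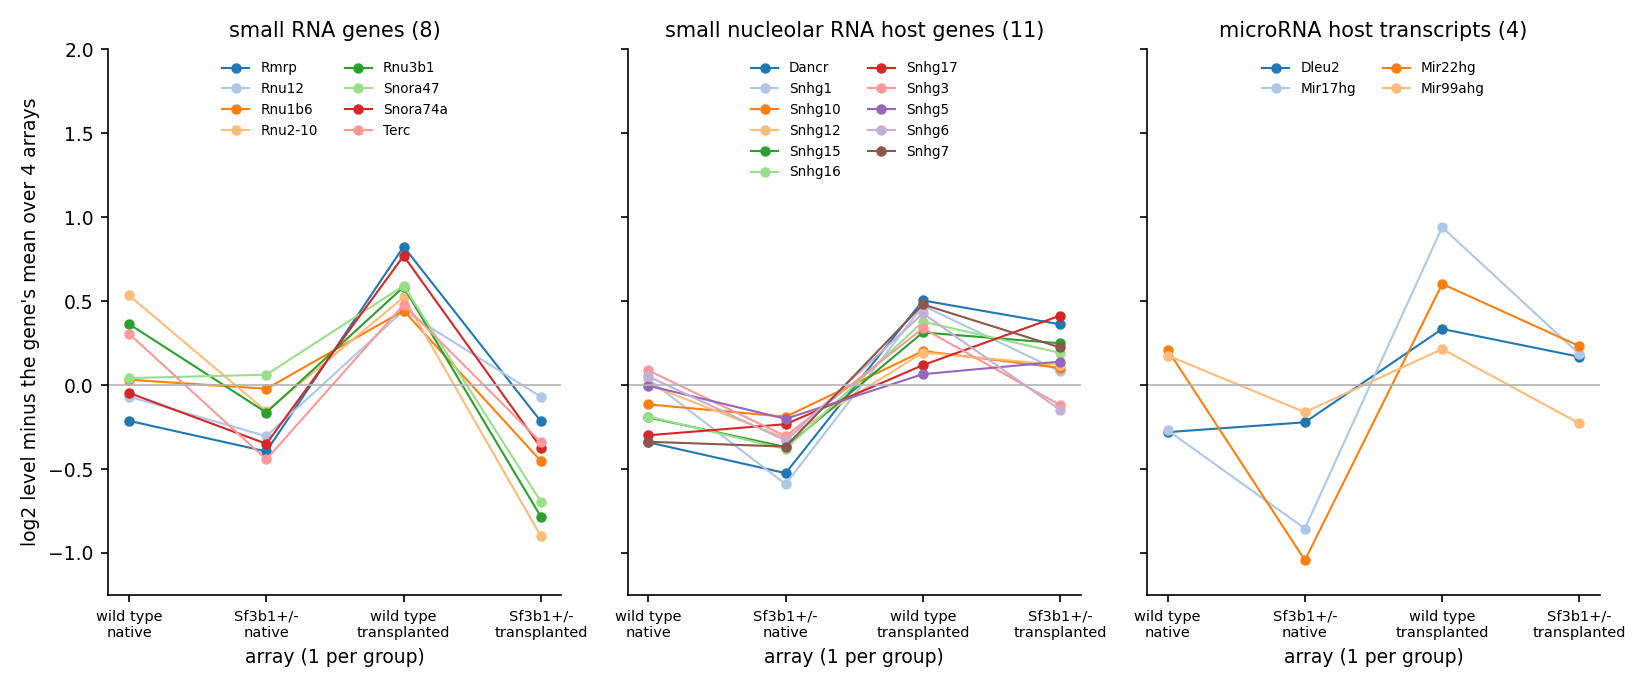
Log2 level of each gene on each of the 4 arrays, minus the gene's mean over the 4, for the small RNA genes, the small nucleolar RNA host genes and the microRNA hosts. Each line is 1 gene and each point 1 array; the small RNA genes drop from the wild-type to the Sf3b1+/- transplanted array in all 8 genes, and the nucleolar RNA hosts are higher on the transplanted than on the native array of each genotype in all 11.

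Host genes of small nucleolar RNAs stood above 0 after transplantation in both genotypes, most of them by less than 1.5-fold. They carry these guide RNAs in their introns, and the spliced remainder is often short-lived. Of 12 on the array 11 were compared, and Snhg18 was above background on no array. All 11 were above 0 in wild-type cells, with a median of 0.42 against 0.06 over all probes, and all 11 in Sf3b1+/- cells, with a median of 0.57 against 0.01. At least 1.5-fold higher were 2 in wild-type cells, where 11.1% of all probes were, and 5 in Sf3b1+/- cells, where 12% were. All 11 lay above the all-probe median in both genotypes, also under quantile normalization and normexp. The other scalings shift all probes of an array alike and cannot change this.

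Dancr, the host of a small nucleolar RNA that is also known to keep progenitor cells undifferentiated, read -1.65, -1.83, -0.80 and -0.95. Both transplanted arrays lay above both native ones, by 0.84 in wild-type and 0.89 in Sf3b1+/- cells. Snhg7 read -0.66, -0.69, 0.16 and -0.10, with differences of 0.82 and 0.59. Snhg15 read 3.05, 2.87, 3.56 and 3.49, and it was higher by 0.51 and 0.62. The brighter probe of Snhg16 differed by 0.57 and 0.57, and a dimmer probe of the same gene by 1.98 and 1.28, so its probes differ in size. By genotype the dimmer probe stood at 0.69 in native cells and the brighter one at -0.19. Snhg5 and Snhg12 differed least in wild-type cells, by 0.07 and 0.19.

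By genotype the same hosts differed less. In native cells 10 of 11 were below 0, with a median of -0.19 against -0.04 over all probes, and in transplanted cells 9 of 11, with -0.14 against -0.09. Snhg1 was the only one of the 11 at least 1.5-fold lower in native cells. Its levels were 1.05, 0.42, 1.49 and 1.09, which gives -0.63 and -0.39. Snhg6 differed by -0.38 and -0.58 and Snhg3 by -0.39 and -0.46. Snhg17 was above 0 in both settings, by 0.07 and 0.30. With spike-in scaling 4 of 11 were below 0 in native and 0 of 11 in transplanted cells. That scaling shifts each array as a whole, so 9 and 7 lay below the all-probe median, as without it. With normexp 9 of 11 in native and 4 of 11 in transplanted cells lay below it, so the position in transplanted cells is not settled. The 12 proteins of the small nucleolar ribonucleoproteins had medians of 0.00 and 0.10 by genotype and of 0.02 and 0.02 after transplantation, and none was 1.5-fold apart.

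Of 9 microRNA hosts 4 were compared. Mir17hg (NR_029382) read -1.23, -1.82, -0.02 and -0.78. It was lower in Sf3b1+/- cells by 0.59 in native and 0.76 in transplanted cells, and higher after transplantation by 1.21 in wild-type and 1.04 in Sf3b1+/- cells. Both transplanted arrays lay above both native arrays, and within each setting the Sf3b1+/- array was the lower one. With spike-in scaling its genotype differences were -0.34 and -0.14. Mir22hg (NR_030711), the host of miR-22, which is known to act in stem cell maintenance and myeloid differentiation, read -3.29, -4.54, -2.90 and -3.27. The Sf3b1+/- native array stood apart below the other 3, giving -1.25 in native and -0.37 in transplanted cells.

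Dleu2 (NR_028264), the host of miR-15a and miR-16, which restrain the cell cycle and the survival factor Bcl2, read -2.56, -2.50, -1.94 and -2.11. It differed by 0.06 and -0.17 by genotype and by 0.61 and 0.39 after transplantation. Mir99ahg is known as a host of let-7 and miR-125 genes, though the RefSeq lookup used here placed no hairpin at or beside it. It differed by -0.34 and -0.44. The other hosts, Mir100hg, Mir124-2hg, Mir1a-1hg, Mir9-3hg and Mirg, were above background on no array. The 14 proteins that process microRNAs or load them onto mRNAs had medians of 0.14 and 0.15 by genotype, with Tnrc6a at 0.60 in native and 0.02 in transplanted cells.

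Among well-known long noncoding RNAs, Neat1 was at least 1.5-fold higher after transplantation in both genotypes and Malat1 in wild-type cells. Malat1, a nuclear speckle RNA, read 0.99, 1.57, 1.83 and 1.96. The wild-type native array was the lowest, which gives a genotype difference of 0.58 in native and 0.13 in transplanted cells and a transplantation difference of 0.84 and 0.39. Neat1, the scaffold of paraspeckles, read -0.29, -0.07, 0.65 and 0.76. Its transplanted arrays lay above both native ones by 0.95 and 0.83, and its genotype differences were 0.22 and 0.10. The 9 paraspeckle proteins had medians of -0.25 and -0.24 after transplantation.

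Pvt1, a transcript next to the Myc gene, was higher after transplantation by 0.88 and 1.30 at its brighter probe and by 0.04 and 0.77 at its dimmer one. Norad, which binds Pumilio proteins, differed by 0.16 and 0.31 by genotype at its brightest probe, and the lowest of its 4 probes stood at 0.07 and -0.35. Tug1, read by 3 probes, differed by -0.27 and -0.28 at one probe and by 0.10 to 0.14 and 0.34 to 0.35 at the other 2, so its direction is not settled. Morrbid, which controls the lifespan of short-lived myeloid cells, was above background on the transplanted arrays only, where it differed by -0.41. Over the 7 compared genes of this list 4 were at least 1.5-fold higher after transplantation in wild-type and 3 in Sf3b1+/- cells, where 11.1% and 12% of all probes were, and 1 of the latter, Morrbid, was not above background on the native arrays. By genotype none was so in either direction except Morrbid in native cells, where neither array was above background.

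Imprinted noncoding RNAs, which are transcribed from 1 parental copy, differed little by genotype. Of 7 on the array 3 were compared. Airn, which silences Igf2r and its neighbours in cis, differed by -0.17 and -0.24, and by 0.03 and -0.05 after transplantation. Kcnq1ot1 differed by -0.08 and 0.06 at its brighter probe and by -0.14 and -0.31 at its dimmer one. Peg13 read 2.12, 1.98, 1.60 and 1.59, so both transplanted arrays lay below both native ones, by 0.52 and 0.39. Meg3 was above background on 1 array, and Gnasas1, Ipw and Mirg on none.

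Antisense transcripts, named for a gene on the opposite strand, were set beside the genes they are named after. Of 78 such genes 24 were compared. Their medians were -0.15 (native) and -0.27 (transplanted), and 17 and 19 of them lay below 0, where 65.3% and 69.5% of all compared members did. For 20 the partner gene was also measured. In both settings 15 of the 20 antisense transcripts lay below their partner in genotype difference, with antisense medians of -0.16 and -0.31 and partner medians of 0.07 and 0.07. After transplantation 5 of 20 lay below their partner in wild-type and 8 of 20 in Sf3b1+/- cells, comparisons that use the same arrays. The sign of antisense transcript and partner was the same in 8 of 20 pairs in native and 10 of 20 in transplanted cells. The genotype medians were -0.12 and -0.22 over all compared members and 0.00 and 0.01 over mRNA probes. The count of 15 of 20 is thus not shown to be particular to antisense pairs.

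**Figure D2:**
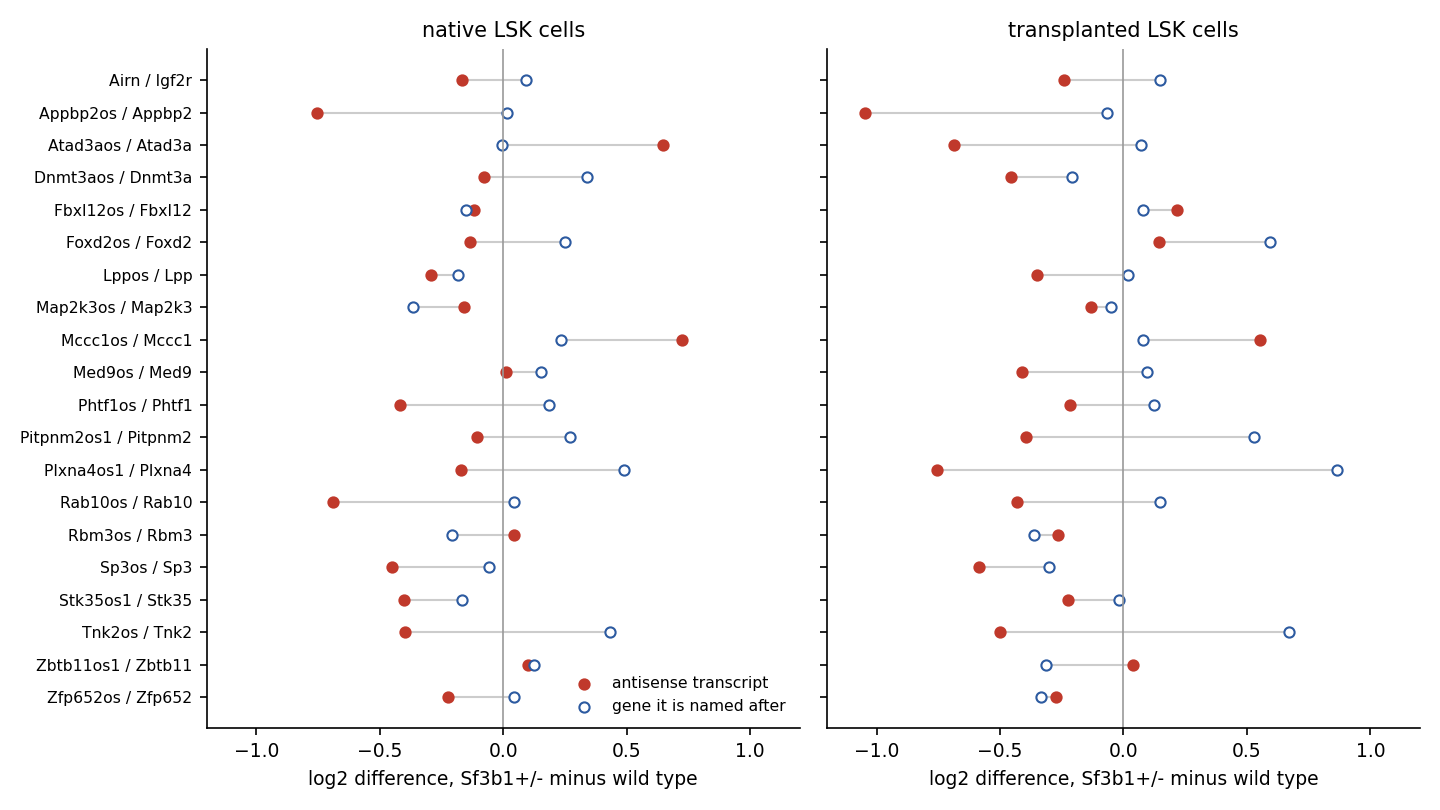
Log2 difference, Sf3b1+/- minus wild type, of 20 antisense transcripts (filled) and of the gene each is named after (open), in native and in transplanted cells. The filled point lies left of the open one in 15 of 20 pairs in each setting; Appbp2os, Tnk2os and Rab10os are among the wider gaps, and for Plxna4os1 and Mccc1os the native arrays, and for Atad3aos the wild-type native array, were not above background.

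Appbp2os (NR_028329) was the antisense transcript lowest in both settings with all 4 arrays above background. It read -5.08, -5.84, -4.99 and -6.04, and both Sf3b1+/- arrays lay below both wild-type ones, by -0.75 and -1.05. Appbp2, an adaptor that binds the amyloid precursor protein, starts 46 bases away on the other strand and differed by 0.01 and -0.07. The window from 250 bases before to 50 after the RefSeq start of Appbp2os (GRCm38.p6, chr11:85234916-85235215, plus strand) is printed because the start of Appbp2 lies so close to it. Capitals mark TGACGTCA, the palindromic cyclic AMP response element.
Appbp2os: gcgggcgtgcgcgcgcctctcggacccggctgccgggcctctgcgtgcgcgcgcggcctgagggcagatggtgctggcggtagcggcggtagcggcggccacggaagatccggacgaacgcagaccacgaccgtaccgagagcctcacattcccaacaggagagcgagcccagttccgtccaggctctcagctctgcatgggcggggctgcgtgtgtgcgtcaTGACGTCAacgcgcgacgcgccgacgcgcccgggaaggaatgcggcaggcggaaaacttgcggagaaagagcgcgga
The motif was searched on both strands and is in 1.79% of 32851 RefSeq start windows of this length. A match says only that these letters are present.

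The same was looked at for compared members with a RefSeq start, which 245 of the 435 member genes had. The neighbour had to be a measured protein-coding gene that starts on the opposite strand, upstream and within 1000 bases. There were 49 such pairs. The member was below its neighbour in genotype difference in 31 of 49 in native and 35 of 49 in transplanted cells, with member medians of -0.18 and -0.26 and neighbour medians of 0.03 and -0.01. Among these, 4930509E16Rik differed by -0.43 and -0.94 and its neighbour Rfx7 by 0.30 and 0.30, and Gm4890 by -0.51 and -0.68 against 0.46 and 0.13 for Mmaa. Of all compared members 65.3% and 69.5% lay below 0, and mRNA probes had medians of 0.00 and 0.01. The counts of 31 and 35 of 49 are thus not shown to be particular to neighbouring starts.

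Over the noncoding probes as a whole more values lay below 0 than above it in Sf3b1+/- cells, and other probes outside the mRNAs stood alike. The median over 499 probes was -0.12 in native and -0.22 in transplanted cells, with 65.3% and 69.5% of them below 0. Over all 27691 compared probes the medians were -0.04 and -0.09, and over 16796 mRNA probes 0.00 and 0.01, with 49.7% and 49.2% below 0. The 10396 compared probes that are neither members nor mRNA had medians of -0.10 and -0.24, with 64.3% and 71.6% below 0, so the shift is not particular to the noncoding RefSeq transcripts. Members with a mean level above -2 had medians of -0.13 and -0.19, those from -5 to -2 of -0.08 and -0.22, and those below -5 of -0.22 and -0.26, where mRNA probes of the same ranges had medians between -0.02 and 0.04. Over the 436 members above background on all 4 arrays the medians were -0.12 and -0.23.

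The sign of these medians depends on the scaling. Spike-in scaling, the percentile over all probes and the series table shift all probes of an array alike. They therefore cannot change the position relative to all probes. Under quantile normalization and normexp, which can change it, the members' medians stayed below those of all probes. With spike-in scaling the members' medians were 0.12 and 0.39 and those of all probes 0.21 and 0.53. Quantile normalization gave -0.07 and -0.13 against 0.01 and -0.02, and normexp background correction -0.13 and -0.31 against -0.07 and -0.18. After transplantation the members' median was 0.14 in wild-type and 0.04 in Sf3b1+/- cells, against 0.06 and 0.01 over all probes.

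**Figure D3:**
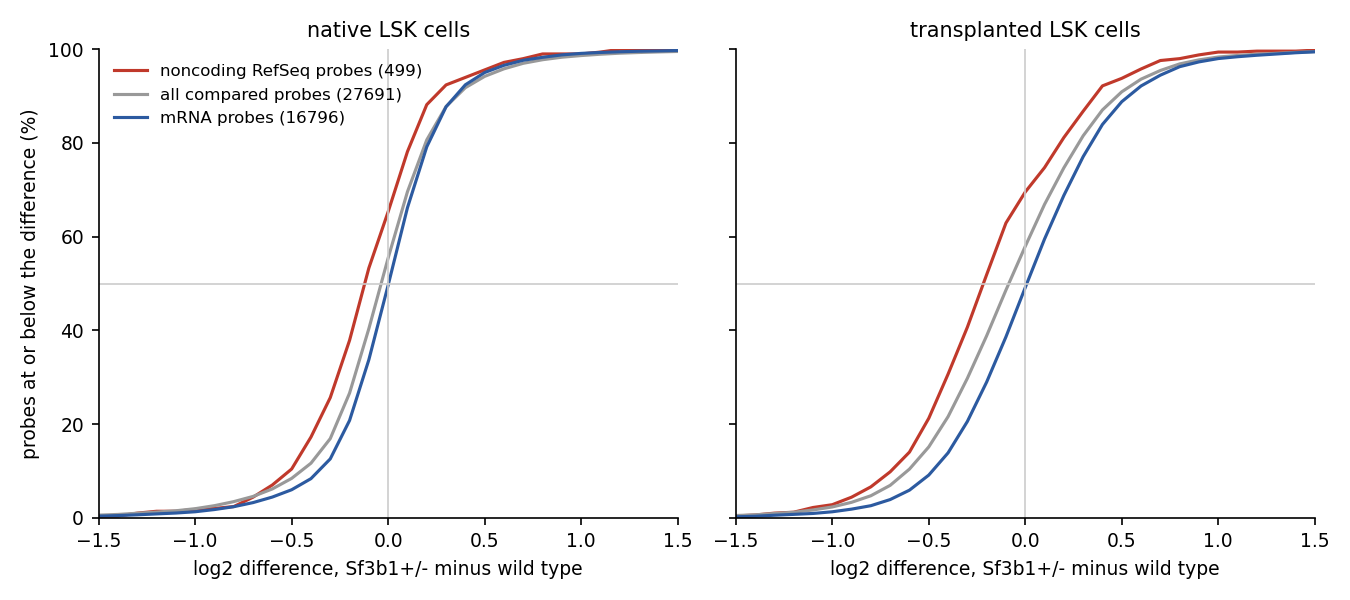
Share of probes, in percent, at or below each log2 difference, Sf3b1+/- minus wild type, for the 499 noncoding probes, all 27691 compared probes and 16796 mRNA probes, in native and in transplanted cells. The noncoding curve crosses 50% left of 0, at -0.12 and -0.22, and the mRNA curve near 0.

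In counts, 16 of 499 members (3.21%) passed 1.5-fold upward in native Sf3b1+/- cells, where 4.4% of all compared probes did. Downward 36 (7.21%) passed, against 6.46% of all probes. In transplanted cells 22 members (4.41%) were higher and 74 (14.8%) lower, against 6.72% and 11% of all probes. The share of members lower by 1.5-fold was thus near that of all probes in native cells and above it in transplanted ones.

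Higher in native Sf3b1+/- cells, among members above background on all 4 arrays, was 9330151L19Rik, read by 9 or 10 spots per array. It stood at -4.19, -3.42, -2.95 and -2.61, a native difference of 0.77, with an SD over its spots of 0.156 on the wild-type and 0.082 on the Sf3b1+/- native array. It was followed by 4930577N17Rik (0.72), 4732471J01Rik (0.69), Malat1 (0.58), a noncoding transcript of the methyltransferase gene Prmt6 (0.57), AI854703 (0.53), G630025P09Rik (0.53) and D130020L05Rik (0.48). In transplanted cells 6 of these 8 also lay above 0, among them G630025P09Rik at 0.74 and AI854703 at 0.46, and 4930577N17Rik (-0.26) and Prmt6 (-0.16) did not. The lowest in native cells was NR_033803 at -1.26, then Mir22hg, Gm8801, Rps4l (-0.97), 4930417O13Rik (-0.88), Gm18852 (-0.84), Appbp2os and Terc. Gm18852 was the one of these above 0 in transplanted cells, at 0.23.

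In transplanted cells the highest member above background on all 4 arrays was the pseudogene Pisd-ps3, whose probe may also read its parent gene. It read -2.57, -2.23, -2.37 and -1.39, so the Sf3b1+/- transplanted array stood above the other 3, by 0.98 over wild type. Gm5176 (0.96), 4933439C10Rik (0.87), Gm13315 (0.76), G630025P09Rik (0.74), 5430405H02Rik (0.67), Gm11346 (0.66) and 5730416F02Rik (0.65) came next, and 6 of the 8 differed by at most 0.11 in either direction in native cells. The lowest were Rps4l (-2.09), the small RNA genes Rnu2-10, Rnu3b1, Snora47 and Snora74a, and 9330179D12Rik (-1.17), Speer1 (-1.13) and 3300005D01Rik (-1.10).

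At least 1.5-fold lower in both settings were 11 members of 11 genes, or 2.20%, where 2.38% of all probes were. Rps4l (NR_003634), named for its likeness to ribosomal protein S4 and so open to signal from related genes, read -0.45, -1.43, -1.40 and -3.49. Its Sf3b1+/- transplanted array stood far below the rest, and the genotype differences were -0.97 and -2.09. A930003A15Rik read -5.98, -7.32, -5.37 and -6.48 and was not above background on the Sf3b1+/- native array, so it was at least 1.53-fold lower there and lower by 1.11 in transplanted cells. Hoxa11os, the antisense transcript of Hoxa11, was above background on both wild-type arrays and on neither Sf3b1+/- array. It was at least 2.09-fold lower over both settings, the one member with this pattern.

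The others above background on all 4 arrays were Appbp2os, Terc, Rnu2-10 and Mir17hg, given before, and Gm8884 (-0.70 and -0.98) and Gm3219 (-0.63 and -0.76). For 9130015A21Rik and Gm12359 neither native array was above background, so only their transplanted differences of -0.72 and -0.69 count as measured. Higher in both settings were 4 members, or 0.802%, against 1.03% of all probes. D030028A08Rik read -6.40, -5.36, -5.84 and -5.03 and was not above background on the wild-type native array. It was at least 2.02-fold higher in native and higher by 0.80 in transplanted cells. Phxr4 was higher by 0.63 in native cells and at least 1.98-fold in transplanted ones. For 3110021A11Rik, above background on both Sf3b1+/- arrays and neither wild-type array, the bound was 1.21-fold over both settings. The fourth is the dimmer probe of BC065397 (0.77 and 0.68), whose brighter probe read -0.13 and -0.49.

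**Figure D4:**
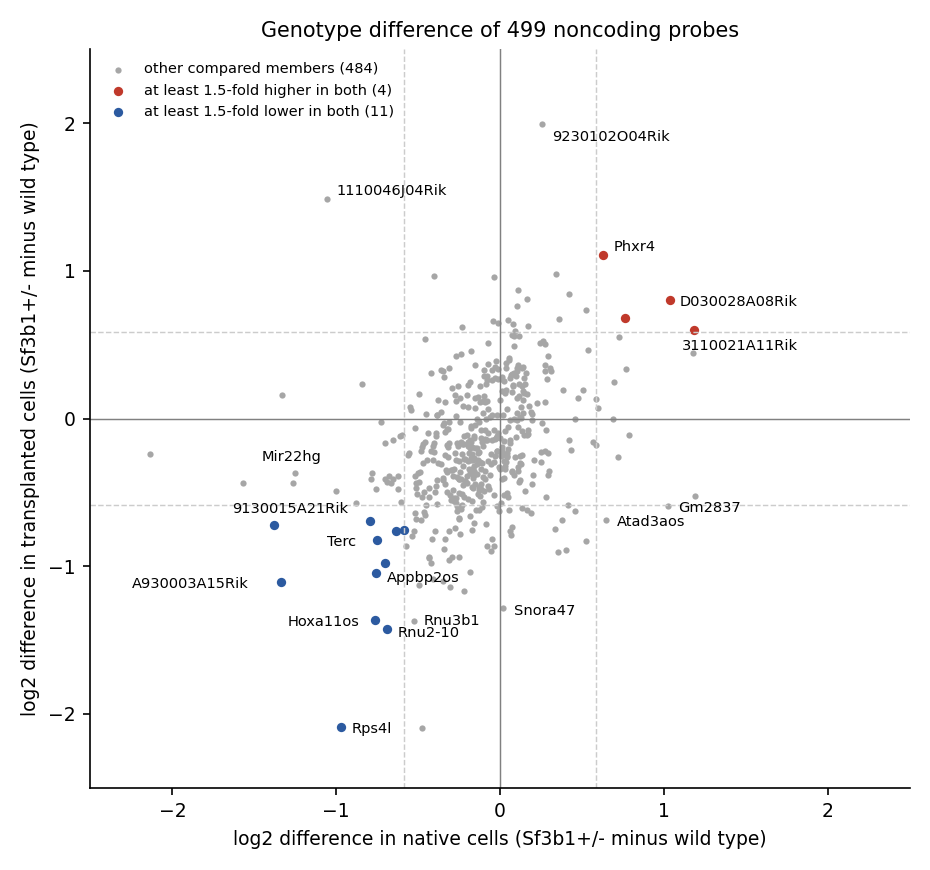
Log2 difference, Sf3b1+/- minus wild type, in native (horizontal axis) and transplanted cells (vertical axis) for the 499 compared noncoding probes, 1 point each. Dashed lines mark 1.5-fold; 11 probes lie beyond it on the lower side in both settings and 4 on the upper side, and values of probes not above background on an array are drawn as measured.

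After transplantation 32 members of 31 genes, or 6.41%, passed 1.5-fold upward in both genotypes, against 5.17% of all probes, and 7 (1.40%) were lower in both, against 2.55%. Of the 32, 17 were above background on all 4 arrays, and over probes with that property the shares were 3.90% of members and 3.65% of all probes, so close to each other. In wild-type cells 64 were higher and 17 lower (11.1% and 5.94% of all probes), and in Sf3b1+/- cells 67 and 39 (12% and 8.44%). The 6 genes with the largest difference common to both genotypes were each above background on the transplanted arrays only. 9230102O04Rik read -7.78, -7.52, -5.53 and -3.54 and was at least 3.88-fold higher over both genotypes, at least 1.81-fold in wild-type and at least 8.32-fold in Sf3b1+/- cells. Between the transplanted arrays it was higher by 1.99 in Sf3b1+/- cells.

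1110046J04Rik read -7.57, -8.63, -6.01 and -4.52, and here too the Sf3b1+/- transplanted array was the highest. By the processed signals it was at least 1.30-fold higher in wild-type and at least 4.20-fold in Sf3b1+/- cells. These bounds are 0.38 and 2.07 on the log2 scale, and with normexp its differences were smaller, 0.15 and 0.90. Gm14207 was at least 3.04-fold higher over both genotypes, Mccc1os at least 1.62-fold, 9130015A21Rik at least 1.33-fold and 9230112J17Rik at least 1.32-fold. Mccc1, the gene that Mccc1os is named after and a carboxylase of leucine breakdown, differed by 0.00 and -0.15.

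Lower after transplantation in both genotypes were Rbakdn, which lay lower on both transplanted arrays (-2.97 and -3.35) than on both native ones, by 0.96 and 1.29, and Rps4l by 0.95 and 2.06. Next came a noncoding transcript of Runx2, a transcription factor of bone and blood cells, by 0.75 and 0.92. Whether its probe also reads the Runx2 mRNA was not tested. NR_046233 was lower by 0.68 and 0.73 at its brighter and by 0.43 and 0.65 at its dimmer probe. 1500009C09Rik was lower by 0.66 and 1.20 and 1700012I11Rik by at least 1.62-fold in wild-type cells and by 0.82 in Sf3b1+/- cells.

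**Figure D5:**
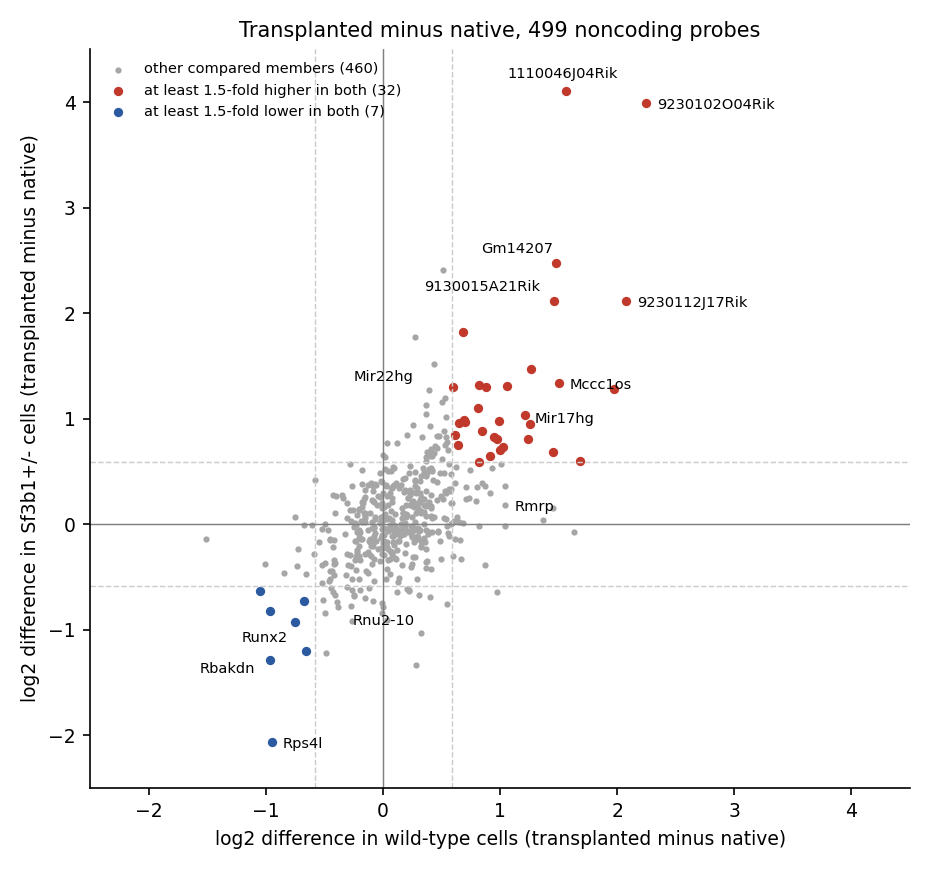
Log2 difference, transplanted minus native, in wild-type (horizontal axis) and Sf3b1+/- cells (vertical axis) for the 499 compared noncoding probes, 1 point each. Dashed lines mark 1.5-fold; 32 probes lie beyond it on the upper side in both genotypes and 7 on the lower side, and for the 6 probes named at the top right outside Mir17hg the native arrays were not above background.

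Detection itself was uneven. Above background on both transplanted and on neither native array were 28 of the 1395 members, and the reverse held for 0. Over the 55678 probes with a value on each array the counts were 802 and 112. By genotype 4 of the 1395 members were above background on the Sf3b1+/- arrays alone (3110021A11Rik, Crnde, 0610039K10Rik and Gm20611) and 1 on the wild-type arrays alone (Hoxa11os). Among the 55678 probes these counts were 259 and 98. The unscaled 75th percentile of the detected probes was 1652, 1940, 1824 and 2686 units on the 4 arrays, and the share of spots above background was higher on both transplanted arrays. Its part in these counts was not tested.

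Among the members with the highest signal were ribosomal RNA and predicted gene models. Rn28s1, the RNA of the large ribosomal subunit, read 6.74, 6.89, 6.65 and 6.16, so the Sf3b1+/- transplanted array was the lowest, with differences of 0.15 and -0.49. NR_003278 differed by -0.25 and -0.68, Rn4.5s by -0.23 and -0.58 and NR_046233 by -0.48 and -0.53. The gene models Gm8580, Gm15772, Gm10653, Gm6548 and Gm5766 lay between -0.08 and -0.27 in native and between -0.15 and -0.54 in transplanted cells. Multi-copy genes and pseudogenes may share signal with their relatives, so these values are uncertain as to source.

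By kind of name the medians lay below 0 in both settings, where 6.46% of all probes were at least 1.5-fold lower in native and 11% in transplanted cells. RIKEN-named transcripts, cDNAs without an assigned function, had medians of -0.12 and -0.26 over 167 genes, with 8 lower and 6 higher by 1.5-fold in native and 30 lower and 12 higher in transplanted cells. Predicted gene models had -0.15 and -0.24 over 104 genes, with 11 lower and 2 higher and then 15 lower and 3 higher. Pseudogenes had -0.09 and -0.14 over 97 genes, with 6 lower and 1 higher and then 14 lower and 5 higher. Over all 435 member genes, 1 probe each, 33 were lower and 12 higher in native and 68 lower and 18 higher in transplanted cells.

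Of 51 genes with more than 1 compared probe, the probes differed in sign for 20 in native and 14 in transplanted cells. In no gene did probes lie 1.5-fold apart from wild type in opposite directions in either setting.

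Markers of other cells differed between the same arrays. Summed over 8 B-cell genes the log2 level was 3.10, 1.73, 1.33 and 1.17, over 6 megakaryocyte genes 3.57, 4.25, 3.89 and 4.83, and over 5 neutrophil genes 2.03, 1.98, 3.02 and 2.03. Over 4 eosinophil genes it was 0.42, 0.96, -0.17 and 0.74, over 4 macrophage and dendritic cell genes 1.73, 1.26, 2.19 and 1.94, and over 5 stroma and endothelium genes 1.43, 1.15, 1.82 and 1.04. The 7 T and NK cell genes ranged from 3.27 to 3.46 and the 6 erythroid genes from -1.04 to -0.35. Such sums follow the brightest gene of a list, and dimmer genes can move otherwise. Beside Nkg7, which leads the T and NK sum, Klrb1c read -5.10, -5.47, -3.32 and -2.01, and Cd3e -1.78, -2.17, -1.84 and -2.26. Beside Kdr, which leads the stroma and endothelium sum, Col1a1 read -3.92, -3.22, -7.22 and -7.35, and Pecam1 -4.12, -3.97, -3.67 and -3.55. Of the B-cell genes, Pax5 was above background on no array. The part of such cells in the noncoding differences was not tested, and fewer cells of a type and less RNA per cell cannot be told apart.

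Genotype and setting were tested over all 4 arrays in 1 additive limma model with Benjamini-Hochberg adjustment over 27691 probes. Its 1 residual degree of freedom per probe is how far the native and transplanted genotype differences lie apart, not a spread of replicates. Standard errors rest on this, moderated over all probes. No member and 0 of all probes passed an adjusted p of 0.05 for either term. At an unadjusted p under 0.05 were 82 members for genotype (16.4%, against 13.3% of all probes), 12 higher and 70 lower, and 121 for setting (24.2%, against 22.6%), 89 higher and 32 lower. The lowest adjusted p among members was 0.319 for genotype, shared by several members, among them Gm3219 with an estimate of -0.70 and a standard error of 0.15. For setting it was 0.0535, for 9230112J17Rik, whose native arrays were not above background. Among members above background on all 4 arrays Mir17hg stood at 0.0910 with an estimate of 1.12. With 1 residual degree of freedom the adjusted genotype test called none of the 2-fold and 4-fold changes simulated in 200 of 27691 probes. A genotype count of 0 thus says nothing about stability. Changes by setting, or in more probes, were not simulated, so the setting count of 0 was not checked in this way. With an intensity trend and robust spread limma called 3 members for genotype and 63 for setting, and with normexp 10 and 51.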

How the data were processed

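RNA of 4 sorted LSK samples (20 ng each, with spike-in RNA) was hybridised to 4 single-colour Agilent arrays on 1 slide. Intensity values are the processed signals, background-corrected by Agilent Feature Extraction per the file headers. The deposited series table holds the same signals as a ratio to 1 constant per array, whose choice is not stated. It followed the scanner values at r = 1.00, with column medians of 0.0810, 0.0745, 0.0816 and 0.0747, and served as an alternative. Control and outlier spots were left out, log2 values of repeated spots were averaged, and the array's 75th percentile over probes detected on all 4 arrays was subtracted. Probes well above background on at least 2 arrays were compared (27691). A bound ("at least N-fold") sets the bright mean against the higher of the dim signal and the lowest signal well above background. Bounds hold for the processed signals only, and normexp can give smaller differences. limma 3.58.1 in R 4.3.3 fitted genotype plus setting. On simulated data for 27691 probes, 200 of them changed by genotype, it called 0% of 2-fold and 4-fold changes after adjustment. Normexp used the median spot and local background signals. Members, lists and tests were chosen with earlier results of these data known. Named were the listed genes, the 8 highest and lowest per setting, the 8 brightest, and the leading genes past 1.5-fold in both settings or both genotypes. Other genes named in pairs were chosen after their values were seen. Alternatives changed the scaling, background correction, filter, threshold and fit.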

Additional observations from a re-analysis of the deposited data

Results flagged for a closer look

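For 3 of the 435 compared member genes the genotype difference, as read, had opposite signs past 1.5-fold in native and transplanted cells. How many of all probes do so was not counted. The difference between settings was not tested, since each group is 1 array. Atad3aos stood at 0.65 in native and -0.68 in transplanted cells, and its wild-type native array was not above background. Its native value is thus a bound of at least 1.48-fold, which does not reach 1.5-fold. Gm2837 stood at 1.02 and -0.59, with the same array not above background and a bound of at least 1.59-fold. 1110046J04Rik stood at -1.06 and 1.48, and neither native array was above background, so only the transplanted value counts as measured.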

How the results depend on the processing

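No paired analysis was possible because each group has 1 array, so the groups share fewer than 2 replicate numbers. The series table and the percentile over all probes left all 44 list medians and all 200 single differences within 0.113 of their value, the error of a difference between repeated spots. Counts past 1.5-fold follow, where they moved, as native higher, native lower, transplanted higher, transplanted lower, higher in both settings, lower in both settings, higher after transplantation in both genotypes and lower in both. Normexp gave 1, 6, 10, an unmoved count, 0, 2, 8 and 3. Spike-in scaling gave 35, 12, 165, 6, 20, 1, 233 and 0. Requiring all 4 arrays gave 5, 22, 14, an unmoved count, 1, 7, 17 and an unmoved count. Without a filter they were 76, 168, 86, 228, 13, 52, 57 and 28. A 2-fold threshold gave 5, 9, 3, 14, 0, 1, 10 and 0. Quantile normalization moved the count lower in both settings to 7. Calls by limma for genotype and setting were 3 and 63 with an intensity trend, 10 and 51 with normexp, 12 and 280 with spike-in scaling, and 0 and 17 with all 4 arrays required. These calls rest on 1 residual degree of freedom.

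Beyond that error, normexp turned the sign of 18 of the 200 single differences, quantile normalization of 1 and spike-in scaling of 48. Those at least 1.5-fold before turning follow, and the other 12, 1 and 43 were smaller. Under normexp, 3110021A11Rik was -0.14 by genotype in transplanted cells and -0.01 after transplantation in wild type, and after transplantation in Sf3b1+/- cells 9130015A21Rik and A930003A15Rik were both -0.05, Gm12359 was -0.35 and Morrbid -0.15. Under spike-in scaling, after transplantation in Sf3b1+/- cells, 1700012I11Rik was 0.01, NR_046233 0.11, Rnu2-10 0.09, Rnu3b1 0.22 and Snora47 0.08. The cause was not tested. The single array per group limits precision throughout, and dim probes near a local background of 42 to 45 units are the least certain.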
